A study of Mus musculus with 1 sample.

Results

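The ferritin and iron handling genes are 8 genes of the mouse genome: Fth1, Ftl1, Tfrc, Trf, Slc11a2, Slc40a1, Aco1 and Ireb2. They were chosen by name, and all 8 were found among the 32285 genes of the count matrix. They were measured in 1 library of single cells from mouse stomach (gastric) organoids, which are epithelial cultures kept in a gel. Its genotype is labelled wild type, its cell type epithelial cell and its treatment none, and the animals' strain, sex and age are not given in the sources used here. Organoids were harvested 7 days after seeding and dissociated for 30 min with trypsin-EDTA. Organoids of other genotypes named by the series were not analysed here. There was 1 library and so no replicate. Every interval given is at 95% and holds the error of counting alone, and none of the differences was tested.

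Cells store iron inside ferritin, a hollow protein shell built from heavy chains (Fth1), which oxidise iron, and light chains (Ftl1), which help to form the mineral core. Iron enters mainly as transferrin (Trf), bound by the transferrin receptor (Tfrc), and leaves the endosome through the divalent metal transporter (Slc11a2). Ferroportin (Slc40a1) is the iron exporter. The iron regulatory proteins (Aco1 and Ireb2) bind iron-responsive elements, which are hairpins in messenger RNA, when iron is scarce. Binding in a 5′ untranslated region (UTR) blocks translation, as in ferritin, and binding in the 3′ UTR of Tfrc protects the messenger RNA from decay. Ferritin is therefore regulated largely at translation, which counts of RNA do not measure.

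The hairpin cores are shown because they divide the 8 genes into those that the iron regulatory proteins can bind at the start of the message, at its end, or not by this core. Annotated UTRs (GENCODE M21, build GRCm38) were searched on the transcript strand for a C, any 5 bases, the loop CAGTGN and 5 bases that pair with the 5 before the loop, with G-T pairs allowed. The 30 bases around each core are written 5′ to 3′ on the transcript strand, with the bulged C and the 6-base loop in capitals.
Fth1 5′ UTR, chr19:9982731-9982760, plus strand: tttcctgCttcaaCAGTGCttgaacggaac
Ftl1 5′ UTR, chr7:45459779-45459808, minus strand: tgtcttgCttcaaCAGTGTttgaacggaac
Slc40a1 5′ UTR, chr1:45925465-45925494, minus strand: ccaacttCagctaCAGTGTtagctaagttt
Tfrc 3′ UTR, core 1, chr16:32631218-32631247, plus strand: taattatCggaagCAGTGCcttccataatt
Tfrc 3′ UTR, core 2, chr16:32631597-32631626, plus strand: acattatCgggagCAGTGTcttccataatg
Tfrc 3′ UTR, core 3, chr16:32631662-32631691, plus strand: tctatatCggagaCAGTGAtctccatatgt
Tfrc 3′ UTR, core 4, chr16:32631709-32631738, plus strand: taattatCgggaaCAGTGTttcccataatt

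Both ferritin genes and Slc40a1 held 1 core each in the 5′ UTR, and Tfrc held 4 in its 3′ UTR. Trf, Slc11a2, Aco1 and Ireb2 held none in either UTR by this pattern, which says only that these letters and pairs were not found. Among all genes with an annotated 5′ UTR of sufficient length, 28 of 20534, or 0.136%, held a core. For 3′ UTRs the share was 127 of 20882 genes, or 0.608%. Tfrc was the 1 gene whose 3′ UTR held 2 or more. Among 5′ UTRs of 100 to 300 bases, a range that holds the Ftl1 UTR of 253 bases, 0.110% of genes held a core. Among 3′ UTRs of 1000 to 4000 bases, a range that holds the Tfrc UTR of 2458 bases, the share was 0.932%. A match is a description of sequence and does not show binding.

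The cell filter required 500 detected genes and allowed 20% of UMIs (unique molecular identifiers, 1 per captured RNA molecule) from mitochondrially encoded genes, and it kept 1892 of 1991 barcodes. These cells held 20118334 gene UMIs, with a median of 8512.5 per cell (range 890 to 47183). All 4 epithelial markers were found, and 99.9% of cells had a UMI of at least 1 of them. Of the gastric lineage lists, the 3 enteroendocrine markers summed to 2 UMIs, the chief cell markers had 71 UMIs for Pgc, 7 for Bhlha15 and none for Cblif and Pga5, and the parietal cell markers had 29 for Atp4a, 1 for Kcne2 and none for Atp4b. All 6 markers of red blood cells, among them the haemoglobin genes, had no UMI. Of the markers of liver cells, which secrete transferrin, Alb had no UMI, Apoa1 had 104 and Ttr had 5, and the list summed to 54.8 CPM in cluster 6 of the clusters described below against at most 4.10 CPM elsewhere. Its part in the Trf levels was not tested. The macrophage markers Adgre1 and Ptprc had 1 UMI each, Csf1r had 13 and Cd163 had none, while Cd68, which other cells also use, had 196. The 5 macrophage genes summed to 5.27 CPM at the lowest, in cluster 3, and to 17.8 CPM at the highest, in cluster 2, and their part in the iron genes was not tested. Levels are CPM, the UMIs of a gene per 1000000 gene UMIs of the same cells. Molecules were counted at their 3′ ends, so a long and a short transcript each give 1 UMI, and CPM were set beside each other between genes without division by length.

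Storage genes were far above the others. Fth1 (ENSMUSG00000024661, GRCm38 chromosome 19, 9980598 to 9985098) had 303146 UMIs, or 15068 CPM (15015 to 15122), and ranked 2 of all genes. Ftl1 (ENSMUSG00000050708, chromosome 7, 45457944 to 45459884) had 45329 UMIs, or 2253 CPM (2232 to 2274), and ranked 93. Together they made up 1.73% of all gene UMIs. Fth1 was found in all 1892 cells and Ftl1 in 1885. The part of these shares that came from free RNA was not tested.

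The uptake genes lay about 100-fold lower when summed, with a storage to uptake ratio of 101 (98.1 to 105), and Trf made up most of that sum. Trf (ENSMUSG00000032554, chromosome 9), the iron carrier, was the highest of them at 116 CPM (112 to 121). Tfrc (ENSMUSG00000022797, chromosome 16), its receptor, was at 38.7 CPM (36.0 to 41.5), and Slc11a2 (ENSMUSG00000023030, chromosome 15) at 15.6 CPM (13.9 to 17.4). Slc40a1 (ENSMUSG00000025993, chromosome 1), the exporter, was the lowest of the 8 with 68 UMIs, or 3.38 CPM (2.62 to 4.28). Tfrc exceeded it 11.5-fold (8.93 to 14.9). The iron regulatory proteins were at 22.2 CPM for Ireb2 (ENSMUSG00000032293, chromosome 9; 20.2 to 24.3) and 18.3 CPM for Aco1 (ENSMUSG00000028405, chromosome 4; 16.5 to 20.3). In the order of levels, the intervals of the neighbours Slc11a2 and Aco1 overlapped, as did those of Aco1 and Ireb2, although the ratios themselves, 1.18 (1.01 to 1.37) and 1.21 (1.05 to 1.40), left out 1. All other neighbours were separated by more than counting error.

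For values per cell, each cell was thinned to 3000 UMIs by random draws without replacement, which kept 1835 cells and left out 57 shallower ones. At this depth Fth1 ran from 2 to 370 UMIs per cell with a median of 39, and 80% of cells lay between 18.4 and 79. Ftl1 ran from 0 to 54 with a median of 6, and 19 cells had none. The variance of Fth1 over cells was 18.2 times its mean and that of Ftl1 3.64 times, where counting error alone gives about 1. Both ferritin chains therefore varied among cells by more than counting error. This quotient grows with the mean and does not rank the chains.

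Trf also varied beyond counting error. It had a UMI in 16.9% of thinned cells (15.3% to 18.7%; 28.1% unthinned), a maximum of 16 UMIs and a variance of 4.07 times its mean. Tfrc had a UMI in 10.7% of thinned cells (9.36% to 12.2%; 26.8% unthinned), never more than 2, and a variance of 1.03 times its mean. Slc11a2, Slc40a1, Aco1 and Ireb2 had variances between 0.974 and 1.02 times their means and a UMI in at most 7.03% of thinned cells. For these and for Tfrc, the variance showed no variation beyond counting error at this depth. The quotient grows with the mean, and at a Tfrc mean of 0.116 UMIs it can miss such variation. Split by the clusters described below, thinned cells did differ in Tfrc by more than counting error. A Tfrc UMI was found in 17.9% of the thinned cells of cluster 1, with an interval of 14.8% to 21.3%. The share for cluster 2 was 4.09%, and its interval ran from 2.36% to 6.56%.

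The Fth1 to Ftl1 ratio was 6.69 UMIs of heavy chain per UMI of light chain (6.62 to 6.75) over all cells. In the 1844 cells with at least 20 UMIs of both genes together, Fth1 was a median of 87.2% of the pair, with the middle 80% of cells between 72.9% and 94.3% and extremes of 32.3% and 99.6%. The squared deviations of these shares were 11.95 times what binomial counting gives. Cells thus differed in their ratio, and not only in their total ferritin RNA. Ftl1-ps1, a second locus of similar sequence that the annotation lists as protein-coding, had 159 UMIs (7.90 CPM). With its UMIs added to those of Ftl1 the ratio was 6.66 (6.60 to 6.73). Reads that match several ferritin copies may also be dropped by the counting, and that effect was not tested.

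Cells were divided into 6 clusters, made without the 8 genes and without 58 further iron genes, and named here by number and leading genes. Cluster 1 (591 cells) was led by Nav3 and Cxcl2, cluster 2 (417) by AC168977.1 and 2610528A11Rik, cluster 3 (395) by Aox3 and Scgb3a1, and cluster 4 (324) by Ly6m and Sprr1a. Cluster 5 (104 cells) was led by Aspm and Dlgap5, had Cenpf and Ccnb1 among its 10 leading genes, and is called proliferating-like. Cluster 6 (61 cells) was led by Cyba and Reg3g and stood apart from the rest in the pit markers, summed at 5213 CPM against at most 344 CPM elsewhere. It stays unnamed, since its 10 leading genes also hold the chief marker Pgc.

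The Fth1 to Ftl1 ratio followed these clusters. The highest ratio was 9.51 (9.32 to 9.70), in cluster 1, and the lowest 2.20 (2.12 to 2.29), in cluster 6. Between them came clusters 3 and 4 with 7.42 (7.24 to 7.60) and 7.15 (7.00 to 7.31). Cluster 5 had 5.43 (5.23 to 5.64) and cluster 2 had 4.84 (4.74 to 4.94). Clusters 3 and 4 had overlapping intervals, and all other neighbours in this order were separated. The ratio moved through both genes: cluster 6 had the least Fth1 and the most Ftl1, whereas cluster 1 had the least Ftl1 with Fth1 close to the level of all cells. The mean share hides a wide spread inside clusters, since the middle 80% of cells of cluster 6 held between 43.6% and 83.4% Fth1 and those of cluster 1 between 79.6% and 95.4%.

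Depth moved the ratio less than the clusters did. Across quartiles of cells by total UMIs it lay between 6.05 in the shallowest and 6.98 in the second. Across quartiles by mitochondrial share it ran from 5.77 in the lowest to 7.71 in the third. Cluster 1 had the highest median mitochondrial share, 4.62%, and cluster 6 the lowest, 3.01%, at median depths of 9271 and 14450 UMIs. The other clusters did not follow the order of the ratios, with 3.55% in cluster 3 and 3.88% in cluster 2. The part of mitochondrial share and depth in the cluster ratios was not tested. The 99 barcodes that the filter removed, at a median of 901 UMIs, had 389 Fth1 and 87 Ftl1 UMIs, a ratio of 4.47 (3.54 to 5.71). Their Fth1 level was 3280 CPM (2962 to 3623), against 15068 CPM in kept cells.

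**Figure D1:**
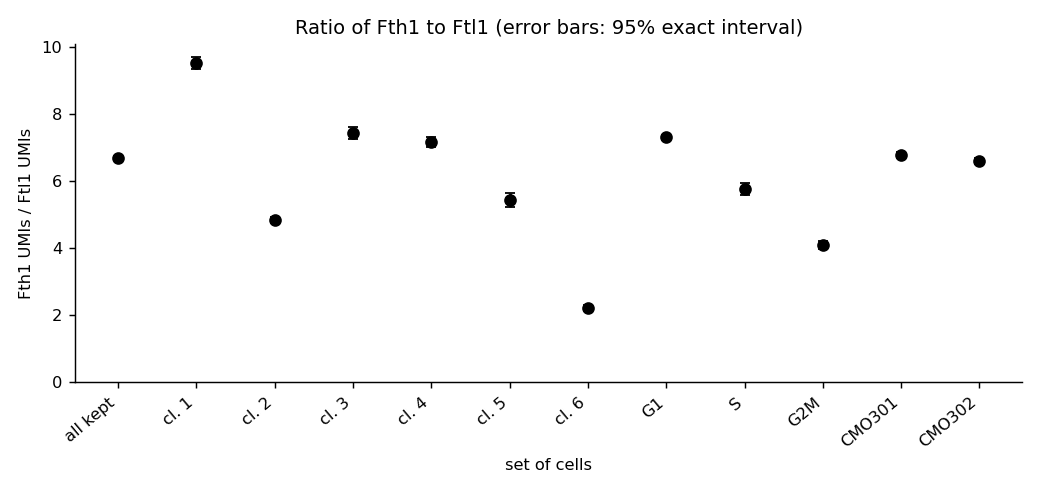
Ratio of Fth1 to Ftl1 UMIs (vertical axis) in all kept cells, the 6 clusters (cl. 1 to cl. 6), 3 cell cycle phases and the cells led by each of 2 multiplexing tags, with 95% exact conditional intervals as error bars. Cluster 1 stands highest at 9.51 and cluster 6 lowest at 2.20, and the 2 tags differ little.

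Across single cells the ferritin chains were weakly related. Over 1835 thinned cells the Spearman correlation of Fth1 with Ftl1 was 0.157 (Pearson r 0.142 on ln of UMIs plus 1). The Pearson correlation of the counts themselves with the counting variance removed, a different measure, was 0.126. The Spearman correlation lay between 0.111 and 0.195 in the 4 depth quartiles and between 0.100 and 0.317 within the 6 clusters. The cells share 1 library and 1 depth, so these values describe this library and carry no p-value.

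Storage (Fth1 plus Ftl1) was set against uptake (Tfrc, Trf and Slc11a2 summed) in the same cells. The Spearman correlation was -0.0911, between -0.117 and -0.0693 in the 4 depth quartiles. The Pearson correlation of the counts themselves with the counting variance removed, a different measure, was -0.0357. In the deepest quartile it was 0.0129, so its sign was not common to all quartiles, whereas the Spearman value was negative in all 4. By gene the Spearman correlation with storage was -0.0811 for Tfrc, -0.0511 for Trf and -0.00112 for Slc11a2. These are weak values in sparse counts, and none was tested. Most of the 1402 genes later compared with Tfrc had Spearman correlations with it between -0.0680 and 0.0673. Storage lay under that range, as did Ftl1 alone at -0.0988. For Trf the range was -0.0705 to 0.0661, and storage lay within it. Over the alternatives the value of storage with Tfrc ran from -0.143 without thinning to -0.0531 in G1 cells alone. It was -0.123 and -0.132 with a shallower and a deeper thinning. The G1 value lay within the range for Tfrc, as did -0.0612 without cluster 6 and -0.0658 in cells led by the tag CMO302. Within clusters the storage to uptake Spearman correlation had no common sign. It was -0.0206 in cluster 1, -0.0790 in cluster 3, -0.00188 in cluster 4 and -0.179 in the 60 thinned cells of cluster 6. In clusters 2 and 5 it was 0.0150 and 0.0436.

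Cells were also pooled by their Tfrc UMIs. The 1638 thinned cells without a Tfrc UMI held Fth1 at 15395 CPM (15286 to 15506) and the 181 cells with 1 Tfrc UMI at 14715 CPM (14394 to 15041). Ftl1 was at 2327 CPM (2285 to 2370) and 2053 CPM (1935 to 2178). Trf was at 109 CPM (99.8 to 119) in cells without and 210 CPM (173 to 252) in cells with 1 Tfrc UMI, higher in the latter, unlike the ferritin chains. No cell had more than 2 Tfrc UMIs at this depth. The 16 cells with 2 had Fth1 at 10708 CPM (9802 to 11675), Ftl1 at 1500 CPM (1174 to 1889) and Trf at 20.8 CPM (0.527 to 116) from 1 UMI. Their ferritin levels lay below those of both other classes, and their Trf level lay below that of cells with 1 Tfrc UMI, so Trf had no common direction over the classes. Pooled by Trf instead, the Fth1 to Ftl1 ratio was 6.55 (6.42 to 6.68) in the 1524 cells without Trf and 6.94 (6.57 to 7.33) in 243 cells with 1 or 2 UMIs. It was 9.21 (8.19 to 10.4) in 62 cells with 3 to 9. Of the cells with 3 or more Trf UMIs, 37 were in cluster 1 and 24 in cluster 3, the clusters with the highest ratios. Cluster 5 held 3 of them, cluster 4 held 2, and clusters 2 and 6 held 1 each. The part of the clusters in this rise was not tested.

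**Figure D2:**
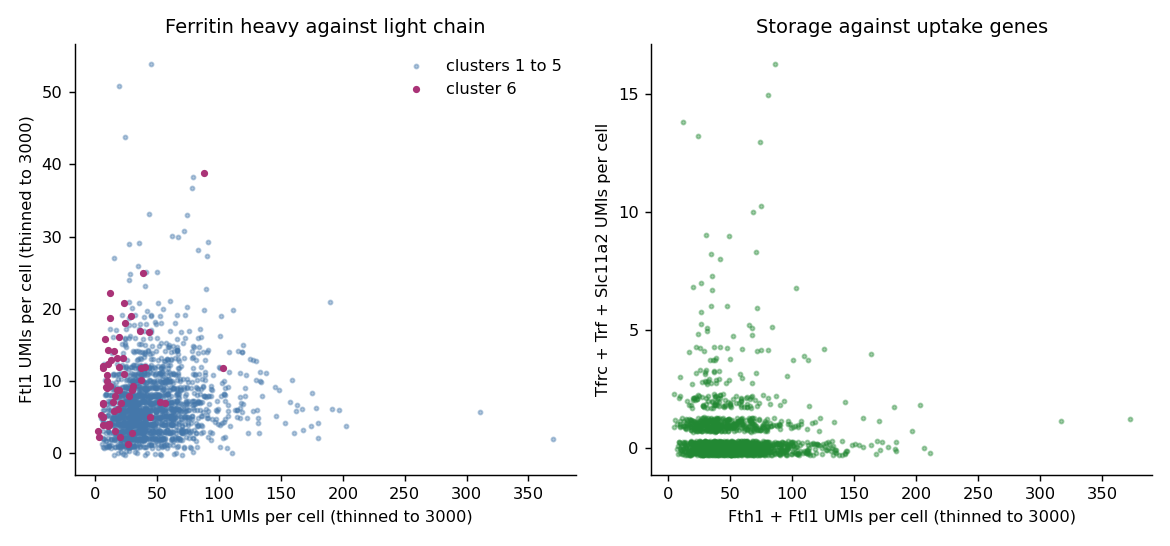
Left, Ftl1 against Fth1 UMIs per cell, and right, uptake genes (Tfrc, Trf and Slc11a2 summed) against storage genes (Fth1 and Ftl1 summed), each point 1 of 1835 cells thinned to 3000 UMIs, with small random offsets to separate points. Cells of cluster 6 lie at low Fth1 for their Ftl1, and the right panel shows no trend beyond the Spearman correlation of -0.0911.

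Between clusters the sum of the uptake genes differed more than the sum of the storage genes. Summed storage ran from 20328 CPM in cluster 2 to 11227 CPM in cluster 6, a ratio of 1.81 (1.77 to 1.85), and of 1.45 (1.43 to 1.48) without cluster 6. Summed uptake ran from 293 CPM in cluster 5 to 53.0 CPM in cluster 2, a ratio of 5.53 (4.61 to 6.65). With a finer clustering this ratio was 8.46 (6.64 to 10.9). For Trf alone it was 9.52 (7.35 to 12.5), with 29.7 (18.7 to 50.01) in the finer and 5.75 (4.82 to 6.87) in a coarser clustering. Cluster 2, with the most storage RNA, had the least uptake RNA. This order did not hold throughout, since cluster 3 was second in both sums, at 18708.5 CPM of storage and 241 CPM of uptake. Its uptake interval (225 to 259) overlapped that of cluster 1 (215 to 237), and 194 CPM of the sum was Trf. From high to low, storage ranked the clusters 2, 3, 4, 1, 5 and 6, and Tfrc alone ranked them 6, 5, 1, 3, 4 and 2. Slc11a2 was also highest in cluster 6 but lowest in cluster 1.

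For Fth1 the clusters ranked from 16846 CPM in cluster 2 (16703 to 16990) through 16486 in cluster 3, 15952 in cluster 4, 14795 in cluster 1 and 11801 in cluster 5 to 7722 in cluster 6 (7551 to 7895). In thinned cells the median Fth1 count was 44 UMIs in cluster 2 and 16 in cluster 6, and the middle 50% of cells, 32 to 66 and 9 to 27.5, did not overlap. For Ftl1, clusters 6 and 2 were highest and overlapped, at 3506 CPM (3391 to 3623) and 3482 CPM (3417 to 3548), and cluster 1 was lowest at 1555 CPM (1526 to 1585). Clusters 3, 4 and 5 lay between 2174 and 2230 CPM.

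Tfrc and Trf were both lowest in clusters 2 and 4. Cluster 6 had the most Tfrc, 76.7 CPM (60.5 to 95.9), and clusters 5, 1 and 3 followed at 56.8, 56.2 and 33.2 CPM. The interval of cluster 6 overlapped those of clusters 5 (45.2 to 70.4) and 1 (50.7 to 62.1). Clusters 4 and 2 had the least, 18.6 CPM (14.7 to 23.1) and 13.6 CPM (9.87 to 18.4). Cluster 5 had the most Trf, 218 CPM (194 to 243), and overlapped cluster 3 at 194 CPM (179 to 210), followed by clusters 1 and 6 at 156 and 99.6 CPM. Clusters 4 and 2 were again lowest, at 34.6 CPM and 22.8 CPM (17.9 to 28.8). Cluster 1 held 44.9% of thinned Trf UMIs in 31.1% of cells, and cluster 3 held 35.8% in 21.4%. Trf was itself among the 10 leading genes of cluster 3. Proliferation markers, summed at 1726 CPM in cluster 5 and at 1029 in cluster 6 against at most 131 CPM in the other clusters, were high in the clusters with high Tfrc except cluster 1, at 101 CPM. Their part in the Tfrc levels was not tested. The 3 mucous neck markers, of which Aqp5 gave most UMIs, were low in clusters 2, 4 and 6 and summed to 505, 615 and 376 CPM there, against 1572.5, 1892 and 1193 in clusters 1, 3 and 5. Their part in the Tfrc and Trf levels was not tested.

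The low-level members had smaller highest to lowest cluster ratios than Tfrc, at 5.62 (3.82 to 8.37), and Trf. The ratio was 1.98 (1.41 to 2.83) for Ireb2, 2.65 (1.79 to 4.04) for Aco1 and 2.36 (0.970 to 6.92) for Slc40a1. The intervals of Aco1 and Slc40a1 overlapped that of Tfrc. Cluster 2 had the lowest values for both iron regulatory proteins, with 9.51 CPM of Aco1 (6.42 to 13.6) and 14.9 CPM of Ireb2 (11.0 to 19.8). The highest values were 25.2 CPM of Aco1 in cluster 1 (21.6 to 29.2) and 29.5 CPM of Ireb2 in cluster 4 (24.7 to 35.1). Neighbours in these orders overlapped, among them clusters 2 and 3 for both genes, clusters 1 and 6 for Aco1, and cluster 4 with clusters 1, 5 and 6 for Ireb2. The intervals of Slc40a1 overlapped in all 6 clusters. So did those of Slc11a2, whose highest to lowest ratio was 1.72 (1.05 to 2.71).

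Counts of members past 1.5-fold between a cluster and the other cells were read against the same count over all 8653 genes with at least 100 UMIs, a limit that 7 of the 8 members passed and Slc40a1 did not. In cluster 1, Tfrc, Trf and Aco1 were higher, where 8.83% of genes were, and Ftl1 was lower, where 4.48% were. In cluster 2, Ftl1 was higher (2.84% of genes) and Tfrc, Trf, Aco1 and Ireb2 were lower (24.8% of genes). In cluster 3, Trf was higher (1.77%) and no member was lower (26.5%). In cluster 4 no member was higher (6.9%), and Tfrc and Trf were lower (8.31%). In cluster 5, Tfrc and Trf were higher (11.5%) and none was lower (5.7%). In cluster 6, Ftl1, Tfrc and Slc11a2 were higher (21%) and Fth1 was lower (17.2%), though the interval of Slc11a2 held 1 (0.997 to 2.40). A cluster set against the rest is a description and no test.

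**Figure D3:**
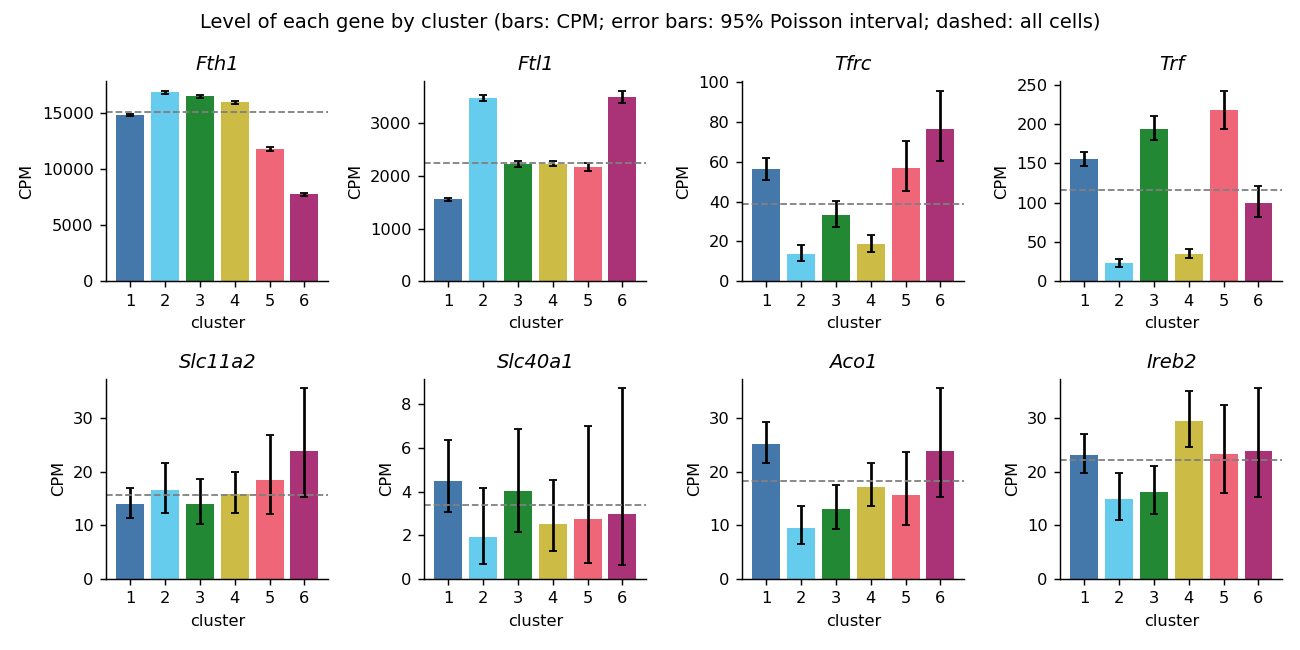
Level of each of the 8 genes (CPM, vertical axes from 0 and different for each gene) in clusters 1 to 6, with 95% Poisson intervals as error bars and the level in all kept cells as a dashed line. Fth1 is lowest in cluster 6, Ftl1 is highest in clusters 2 and 6, and Tfrc and Trf are both lowest in clusters 2 and 4.

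Iron uptake is known to follow growth, so cells called S or G2/M (440 cells, median 8328.5 UMIs) were set against cells called G1 (1452 cells, 8606.5 UMIs). Summed storage was at a ratio of 0.824 (0.817 to 0.831) and summed uptake at 1.45 (1.35 to 1.56). Fth1 was at 12341 CPM in cycling and 15865 CPM in G1 cells, a ratio of 0.778 (0.771 to 0.785). Ftl1 was at 2526 and 2173 CPM, a ratio of 1.16 (1.14 to 1.19). The receptor Tfrc was at 51.0 and 35.1 CPM, a ratio of 1.45 (1.24 to 1.69), and Trf at 155 and 105 CPM, a ratio of 1.48 (1.35 to 1.62). The intervals of Slc11a2 (0.949 to 1.59), Slc40a1 (0.676 to 2.15), Aco1 (0.634 to 1.08) and Ireb2 (0.861 to 1.35) held 1. The interval of Aco1 left out 1 without cluster 6, at 0.711 (0.518 to 0.957), and under the multiplexing tag CMO302, at 0.607 (0.385 to 0.923), and that of Slc11a2 did so under the tag CMO301, at 1.46 (1.04 to 2.03). No member was past 1.5-fold in either direction, where 6.74% of genes were higher and 1.85% lower.

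Clusters 5 and 6, in which 100% and 63.9% of cells were called cycling, carried much of the comparison, and leaving them out also removes many of the cells it is about. Without them the Tfrc ratio was 1.04 (0.819 to 1.31) and the Trf ratio 1.17 (1.03 to 1.32), while Fth1 was at 0.892 (0.882 to 0.902) and Ftl1 at 1.18 (1.15 to 1.21). Called by a UMI of Mki67 or Top2a instead, cycling cells had an Ftl1 ratio of 1.02 (0.999 to 1.04) and a Tfrc ratio of 1.43 (1.24 to 1.65), and Trf was at 1.11 (1.02 to 1.21). By phase, Trf was at 211 CPM in S and 101 CPM in G2/M cells and Fth1 at 14005 and 10722 CPM. The Fth1 to Ftl1 ratio was 7.30 in G1 (7.22 to 7.38), 5.76 in S (5.59 to 5.93) and 4.10 in G2/M (3.98 to 4.22).

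**Figure D4:**
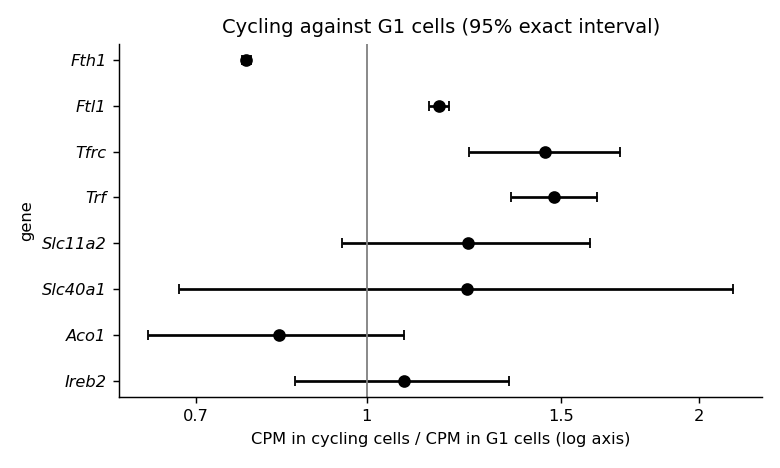
Ratio of CPM in cells called S or G2/M to CPM in cells called G1 (horizontal axis, logarithmic) for each of the 8 genes, with 95% exact conditional intervals and a line at 1. Fth1 lies below 1 at 0.778, Ftl1, Tfrc and Trf lie above 1, and the intervals of the other 4 genes cross it.

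The matrix also counts multiplexing tags, oligonucleotides that mark the cells of a suspension before pooling. CMO301 led in 1062 kept cells and CMO302 in 830, and no label says what either tag stands for. At least 80% of tag UMIs were in the leading tag in 623 and 466 of these cells. Fth1 was at 15255 CPM under CMO301 and 14835 CPM under CMO302, a ratio of 1.03 (1.02 to 1.04), and Ftl1 at 2255 and 2251 CPM, 1.002 (0.984 to 1.02). Trf was at 122 and 110 CPM, 1.11 (1.02 to 1.20), and Tfrc at 41.2 and 35.6 CPM, 1.16 (0.9999 to 1.34). The Trf ratio was 1.08 (0.995 to 1.18) without cluster 6 and 1.27 (1.13 to 1.43) in cells with at least 80% of tag UMIs in the leading tag. Aco1 was at 16.6 and 20.4 CPM, 0.810 (0.657 to 0.9996), and at a ratio of 0.836 (0.640 to 1.09) in those cells. The intervals of Slc11a2, Slc40a1 and Ireb2 held 1. No member was past 1.5-fold, where 0.497% of genes were higher and 0.589% lower under CMO301. The cycling to G1 ratio of Trf was 1.74 (1.55 to 1.95) under CMO301 and 1.14 (0.978 to 1.32) under CMO302, and that of Tfrc was 1.45 and 1.44.

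Of 58 further iron genes, 52 had a UMI and 39 had at least 100. Among uptake genes the secreted iron binders led, with Ltf (lactoferrin) at 311 CPM (303 to 318) and Lcn2 (lipocalin 2, which binds bacterial siderophores) at 166 CPM (161 to 172). Both binders were above Trf. Among genes of storage and intracellular handling, the RNA-binding iron chaperones Pcbp2 and Pcbp1 were at 609 CPM (598 to 620) and 187 CPM (181 to 193), and the biliverdin reductase Blvrb at 120 CPM. Ncoa4, the receptor that sends ferritin to lysosomes, was at 27.6 CPM (25.4 to 30.0), and Fbxl5, which marks the Ireb2 protein for destruction, at 79.0 CPM (75.1 to 83.0). For iron-sulfur clusters, Glrx5 was at 115 CPM and Iscu at 109 CPM. Among export genes, Cp (ceruloplasmin, a copper oxidase that works with ferroportin) was at 78.4 CPM (74.6 to 82.4) and Abcb8 at 7.85 CPM. Hamp and Hamp2, which encode hepcidin, Hjv, Hephl1, Ftmt and Pcbp3 were without any UMI. A count of 0 leaves room for 0.159% of cells with a UMI (3 counts) and sets no limit on cells that express a gene below what is captured.

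Several of these genes were low in clusters 2 and 4, as Tfrc and Trf were. In cluster 2, 16 of the 39 genes, or 41.0%, were lower by at least 1.5-fold, against 24.8% of all 8653 genes, and 1 was higher. The median log2 ratio was -0.22 for the list and -0.24 for all genes. Cp was at 14.6 CPM in cluster 2 and 90.3 CPM in the other cells, a ratio of 0.162 (0.118 to 0.217). Ltf had a ratio of 0.257 (0.228 to 0.290), Lcn2 of 0.339 (0.292 to 0.391) and Slc39a8, a metal importer, of 0.254 (0.0916 to 0.569). Steap1, Steap2 and the mitochondrial transporter Abcb8 were also past 2-fold lower. In cluster 4, 6 of the 39 were lower (15.4% against 8.31% of all genes) and 3 higher (7.69% against 6.9%), with a median of -0.19 against 0.04. Cp was at 0.229 times the other cells (0.1835 to 0.282), Lcn2 at 0.276, Ltf at 0.310 and Steap1 at 0.381. Cluster 1 had the reverse for Cp, at 2.42 times (2.19 to 2.67), and Ltf, at 2.25 times (2.14 to 2.37), among 6 higher genes (15.4% against 8.83%) and 1 lower (2.56% against 4.48%), with a median of 0.03 against 0.10.

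In cluster 6, where Fth1 was low, 11 of the 39 were higher (28.2% against 21%) and 5 lower (12.8% against 17.2%), with a median of 0.15 against 0.06. With genes of at least 50 UMIs, 9 of 43 were lower (20.9% against 18.8% of all genes), and the median was 0.05 against 0.08. Hmox1, which releases iron from haem, was at 32.9 CPM against 13.9 CPM, a ratio of 2.37 (1.60 to 3.41). Fbxl5 was at 0.404 times (0.277 to 0.570), Slc39a8 at 3.57 times (2.13 to 5.73), Lcn2 at 2.28 times, Nubp1 at 2.14 times and the haem-forming enzyme Fech at 2.06 times (1.25 to 3.24). Steap1 was at 0.430 times from 3 UMIs, and its interval held 1 (0.0875 to 1.28). In the proliferating-like cluster 5, 5 were higher (12.8% against 11.5%) and 2 lower (5.13% against 5.7%), with a median of 0.15 against 0.09. Among them were Steap2 at 2.65 times (1.67 to 4.07) and Hmox1 at 0.352 times (0.151 to 0.703). In cluster 3, 2 were higher (5.13% against 1.77%) and 4 lower (10.3% against 26.5%), with a median of -0.01 against -0.27. Between cycling and G1 cells, Slc39a8, Lcn2 and Blvra were higher and Ltf was lower by at least 1.5-fold, which is 7.69% and 2.56% of the list against 6.74% and 1.85% of all genes. The median was 0.12 against 0.04, and none was past 1.5-fold between tags. With genes of at least 50 UMIs, 1 of 43 was higher under CMO301 (Flvcr2), as were 1.3% of all genes.

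The genes whose counts over 1835 thinned cells were most like each member were sought among the 1401 or 1402 genes with a UMI in at least 20% of them. For Ftl1 they were Gapdh (Spearman 0.355), Eif1 (0.319), Mt1 (0.309), Aldoa (0.272) and Ubb (0.261), where 90% of genes lay between -0.117 and 0.118. For Fth1 they were Fau (0.227), Bsg (0.218), Aldoa (0.215), Eif1 (0.214) and Ly6d (0.200), with 90% of genes between -0.0861 and 0.0907. Ftl1 ranked 15 among 1401 genes by likeness to Fth1, and Fth1 ranked 29 by likeness to Ftl1. For Tfrc the highest were Tmsb4x (0.155), Actb (0.137), Tmem176a (0.137), Ccnd2 (0.136) and Fabp5 (0.134). For Trf, added after its values were seen, they were Scgb3a1 (0.335), Tmem176a (0.242), Tmem176b (0.241), Khdc1a (0.193) and Sftpd (0.149). Aldoa and Eif1 were thus among the 5 most alike genes of both ferritin chains, and both were among the 5 with the lowest correlation for Tfrc (-0.190 and -0.185) and for Trf (-0.188 and -0.157).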

How the data were processed

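The authors deposited raw UMI counts per feature and barcode. They were written by Cell Ranger 6.1.2, per the file headers, and the design text of the series names GRCm38/mm10 as the build. The annotation used for counting is not given in the sources used here. Tag UMIs were kept out of all totals. Of 32285 gene identifiers, 32235 were found in GENCODE M21, which gave coordinates and UTRs. Scrublet (scanpy 1.11.5) marked 12 of 1892 cells (0.634%), which were kept here as the filter defines the cells and removed in an alternative. Clusters used 2000 variable genes, without the iron, cell cycle, sex-linked and mitochondrial genes, 30 principal components, 15 neighbours and Leiden (leidenalg 0.10.2) at resolution 0.6. Intervals are exact Poisson for CPM, conditional binomial for ratios and Clopper-Pearson for shares. No p-value was computed. Depth ranged from 890 to 47183 UMIs per cell.

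The members and lists were chosen with earlier results of these data known. Named genes are the 8 members, the 3 highest in each group of the iron list and those past 2-fold with at least 100 UMIs, the 5 genes most like Fth1, Ftl1 and Tfrc, and 2 leading genes of each cluster. The genes most like or least like Trf, those least like Tfrc, Ncoa4, Blvra and the iron genes without a UMI were named after their values were seen. Some genes that the rule names are not reported here. The pooled ratios with their intervals, the thinning, the Spearman correlation and the hairpin search were tested on simulated data. The clustering, the phase calls and the doublet calls were not.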

Additional observations from a re-analysis of the deposited data

Results flagged for a closer look

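Signal was found outside the main measurement in 2 places. The multiplexing tags held 5501432 UMIs. The 99 barcodes that the cell filter left out held 389 Fth1 UMIs.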

How the results depend on the processing

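Across 26 alternatives, 313 values of 52 results were recomputed. No ratio whose interval left out 1 changed direction. Ratios whose intervals held 1 did: cycling to G1 for Aco1 (0.832) was 1.07 by Mki67 or Top2a and under CMO301 (and 0.641, 0.422 to 0.940, without clusters 5 and 6), for Slc11a2 (1.23) 0.9504 under CMO302 and 0.995 without clusters 5 and 6, for Slc40a1 (1.23) 0.908 under CMO301 and for Ireb2 (1.08) 0.984 under CMO302, and between tags Ftl1 (1.002) was 0.987 without cluster 6. The correlation of storage with Slc11a2 (-0.00112) lay between 0.00289 and 0.0266 in 7 alternatives. Of the main values 56 stayed within the counting interval (within 0.05 for correlations, 1.5 times for counts) and 34 moved, and of values for single genes and pairs 172 stayed and 51 moved. Summed storage, 17321 CPM, was 17402 with a stricter cell filter, 17243 in all barcodes, 17641 without cluster 6, 17510.5 and 17085 under CMO301 and CMO302, and 27464 without ribosomal and mitochondrial genes in the total. Summed uptake, 171 CPM, was 179 and 161 by tag, 271 without those genes and 54.3 without Trf. The Fth1 to Ftl1 ratio was 7.07 without cluster 6 and 6.76 and 6.59 by tag. The highest to lowest cluster ratio of storage was 1.52 and 1.92 at resolutions 0.3 and 1.0, 1.72 with the iron genes left in the clustering, 1.77 with seed 1 and with means over cells, and 1.45 without cluster 6. For uptake it was 4.17 and 8.46 at these resolutions. The cycling to G1 ratio of storage, 0.824, was 0.880 with phases called after thinning, 0.865 by Mki67 or Top2a, 0.867 without cluster 6, 0.798 and 0.859 by tag and 0.926 without clusters 5 and 6. For uptake, 1.45, it was 1.34 after thinning, 1.18 by Mki67 or Top2a, 1.64 and 1.18 by tag, and 1.12 without clusters 5 and 6. The uptake ratio between tags, 1.11, was 1.21 in cells with at least 80% of tag UMIs in the leading tag. The count of iron list genes past 1.5-fold between tags went from 0 to 1 at a minimum of 50 UMIs, where 1.3% of all genes were higher. The cause was not tested. The alternatives with Ftl1-ps1 added to Ftl1, without Trf, without clusters 5 and 6, and without cluster 6 for cluster ratios were chosen after seeing the data. Depth limits Slc40a1 most, with 68 UMIs. No paired analysis was possible because the study has 1 library here.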
